A study of Mus musculus with 6 samples.

Results

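The genes described here are 10 members of the BCL2 family of apoptosis regulators, chosen by gene symbol: Bcl2, Bcl2l1, Mcl1, Bax, Bak1, Bbc3, Pmaip1, Bcl2l11, Bid and Bad. Of these, 9 were among the 21686 genes of the count table, and Pmaip1 was not analysed here. RNA was measured in MC3T3-E1 Subclone 14 cells, a clonal mouse osteoblast line, in 6 libraries of 2 per group. The control group received 100 µL PBS, the dexamethasone group received 10 µM of this synthetic glucocorticoid, and the dexamethasone + EPC-EVs group received 10 µM dexamethasone with 100 µg of extracellular vesicles secreted by mouse bone marrow endothelial progenitor cells (EPC-EVs, EPCs-exo in the labels). All groups were cultured for 72 hours. The comparisons ask how dexamethasone changed the cells and how the vesicles changed dexamethasone-treated cells. The study calls the 2 libraries of a group biological replicates, but no label says that they came from separate cultures. The p-values therefore measure only the spread between these libraries.

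Proteins of the BCL2 family decide whether the outer membrane of the mitochondrion stays intact. Anti-apoptotic members (Bcl2, Bcl2l1, Mcl1) bind and restrain their relatives, effectors (Bax, Bak1) form pores through which cytochrome c leaves, and BH3-only members (Bbc3, Bcl2l11, Bid, Bad) relay stress signals by binding the others. Glucocorticoids are known to induce apoptosis in osteoblasts and lymphocytes. Much of the control of this family lies in protein binding, cleavage and turnover, which RNA counts do not measure.

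The libraries differed in depth and composition along with the groups. Total counts were 6126888 and 5146760 in the control group, 6583735 and 6575094 in the dexamethasone group, and 12864009 and 13182014 in the dexamethasone + EPC-EVs group. Mitochondrially encoded genes held 7.46% and 8.62% of counts in the control group, 5.55% and 5.78% in the dexamethasone group, and 0.465% and 0.727% in the dexamethasone + EPC-EVs group. The mean GC content of the counted genes, weighted by counts, was 48.0% and 47.1% in the control group, 48.7% and 48.5% in the dexamethasone group, and 51.5% in both dexamethasone + EPC-EVs libraries. Treatment and these library properties cannot be told apart in this design. Because the data are bulk, fewer cells of a kind and less RNA per cell cannot be told apart either.

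GC content moved with the direction of change over all genes. Compared with the dexamethasone group, the dexamethasone + EPC-EVs group had a median log2 fold change of -0.58 over 4036 genes with a GC content under 45%, and of 1.10 over 511 genes with at least 60%. Against the control group these medians were -0.78 over 4025 genes and 1.52 over 512 genes, and for dexamethasone compared with control they were -0.20 over 3940 genes and 0.49 over 454 genes. Among the members, the transcript GC content was 65.2% for Bbc3, 63.5% for Bax, 57.1% for both Bak1 and Bad, 55.9% for Bcl2l1, 51.3% for Bid, 48.7% for Mcl1, 48.0% for Bcl2l11 and 46.3% for Bcl2, beside a median of 48.7% over all genes. For this reason, values from a fit with the trend on GC content and length removed from each library stand beside the results below.

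No measured member passed the threshold after dexamethasone alone. By edgeR's quasi-likelihood test, 0 of 9 members had an adjusted p under 0.05 in the dexamethasone group compared with the control group, where 7 of 12879 genes tested (0.0544%) did. None of the 9 members had an unadjusted p under 0.05, and limma called 0 of 9 as well. DESeq2 called 0, but gave an adjusted p to 4 of the 9 members only, so the other members could not be called by it. The log2 fold changes lay between -0.40 for Bax and Bcl2 and 0.60 for Bak1, with a median of 0.07 over the members and 0.01 over all genes tested. The 95% confidence interval was narrowest for Mcl1, from -0.64 to 0.14, and widest for Bbc3, from -1.51 to 1.65, with Bad from -0.63 to 1.81 and Bak1 from -0.03 to 1.23, so differences up to these bounds could not be told from 0 with these libraries. With the trend on GC content and length removed, 0 members were called by edgeR as well, beside 17 of 12867 genes. In that fit Bax moved to -0.91 and Bcl2l1 to -0.69. The count depended on single libraries: without control replicate 1, 2200 genes and 2 members were called, Mcl1 at a log2 fold change of -0.45 and Bak1 at 1.02, and without control replicate 2, 113 genes and 0 members were called by edgeR. Leaving out dexamethasone replicate 2 gave 17 genes.

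Adding EPC-EVs went with lower Mcl1 and higher Bax, Bak1, Bbc3 and Bad. Compared with the dexamethasone group, edgeR called 5 of 9 members at an adjusted p under 0.05, beside 5397 of 13556 genes (39.8%). Of the members, 4 were higher, where 20.9% of all genes were, and 1 was lower, where 18.9% were. The members' shares called and called higher were above those of all genes and the share called lower was below, but they rest on 9 genes chosen with results known, so nothing particular to the members is read from them. Against the control group, 4 of 9 members were called beside 4916 of 13511 genes (36.4%): Bak1, Bbc3 and Bad were higher, where 19.1% of genes were, and Mcl1 was lower, where 17.2% were. Both comparisons share the dexamethasone + EPC-EVs libraries. On GRCm38, the called members lie at chr3:95658788-95663176 (Mcl1, ENSMUSG00000038612.16), chr7:45461697-45466898 (Bax, ENSMUSG00000003873.11), chr17:27019810-27029009 (Bak1, ENSMUSG00000057789.13), chr7:16308393-16318205 (Bbc3, ENSMUSG00000002083.13) and chr19:6941861-6951899 (Bad, ENSMUSG00000024959.13). With the trend on GC content and length removed, 2 members were called compared with the dexamethasone group, Mcl1 lower and Bad higher. Over all genes that fit called 4231 of 13544, 2170 higher and 2061 lower. Against the control group, that fit called 4 members, of which Bad was higher and Mcl1, Bcl2l1 and Bax were lower. Beside them, 3570 of 13498 genes were called there, 1694 higher and 1876 lower.

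**Figure D1:**
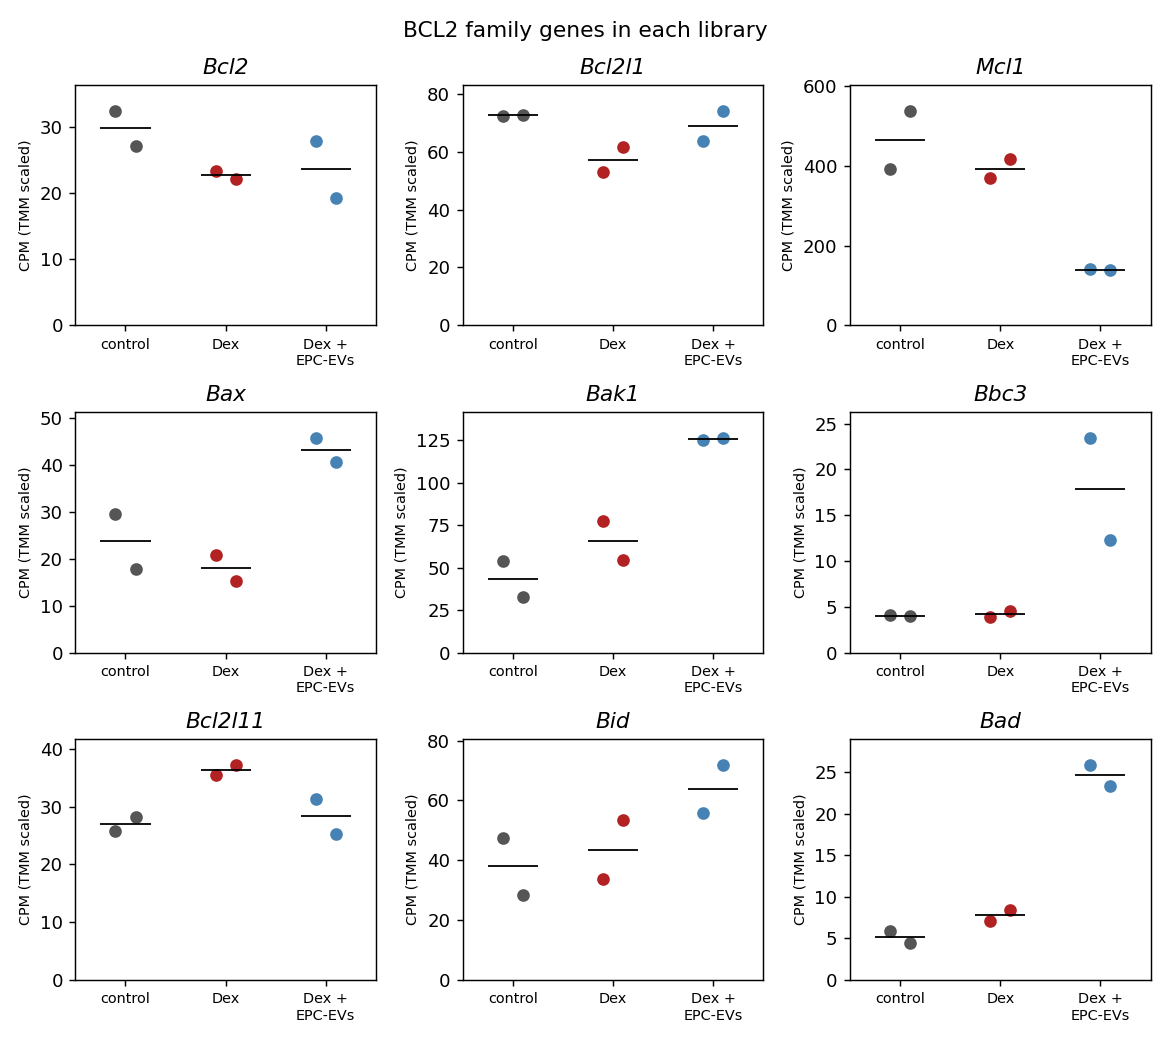
Levels in CPM (linear axis from 0) of 9 BCL2 family genes, where each point is a library and each line the mean of the 2 libraries of a group. Mcl1 lies at 141 and 138 CPM in the dexamethasone + EPC-EVs group and at 370 CPM or more in the other libraries.

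Mcl1, an anti-apoptotic member with a short-lived protein, had the smallest adjusted p of the members in both comparisons with vesicles by edgeR. In CPM, which are counts scaled to a common effective library total, its level was 392 and 538 CPM in the control group, 370 and 417 CPM in the dexamethasone group, and 141 and 138 CPM in the dexamethasone + EPC-EVs group. Both libraries with vesicles lay below all others. By edgeR's quasi-likelihood test, the log2 fold change was -1.54 ± 0.13 (SE) compared with the dexamethasone group, adjusted p = 6.90e-06. Against control it was -1.78 ± 0.21 (SE), with an edgeR adjusted p of 0.000661. Mcl1 was called in both comparisons under every alternative tried, with log2 fold changes between -1.61 and -1.45 against the dexamethasone group and between -1.96 and -1.52 against the control group. Removing the GC and length trend gave -1.58 and -1.89.

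The other anti-apoptotic members were not called. Bcl2, the founding member, stood at 32.4 and 27.1 CPM in the control group, 23.3 and 22.1 CPM in the dexamethasone group, and 27.9 and 19.3 CPM in the dexamethasone + EPC-EVs group. The vesicle libraries spanned the dexamethasone libraries, and the log2 fold change between these groups was 0.01, with a 95% confidence interval from -0.57 to 0.59. Its sign changed with the scaling, as its value lay so close to 0. Bcl2l1, which encodes BCL-XL, stood at 72.3 and 72.7 CPM in the control group, 52.8 and 61.5 CPM in the dexamethasone group, and 63.5 and 74.1 CPM in the dexamethasone + EPC-EVs group. Its log2 fold change was 0.22 compared with the dexamethasone group and -0.12 compared with the control group. The latter became -1.03 with an edgeR adjusted p of 0.00865 once the GC and length trend was removed.

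Both effectors were higher with vesicles, and neither call held once the GC and length trend was removed. Bax, a pore-forming effector, stood at 29.6 and 17.9 CPM in the control group, 20.8 and 15.3 CPM in the dexamethasone group, and 45.9 and 40.7 CPM in the dexamethasone + EPC-EVs group. Its log2 fold change was 1.21 ± 0.24 (SE) compared with the dexamethasone group, with an edgeR adjusted p of 0.00194. In the fit without the GC and length trend this value was 0.00, with a 95% confidence interval from -0.48 to 0.48. Against control, Bax had a log2 fold change of 0.81 with an edgeR adjusted p of 0.0692, and of -0.87 with an edgeR adjusted p of 0.0304 once the trend was removed, so its direction depends on this step. Without control replicate 1, Bax was called higher there at 1.26 with an edgeR adjusted p of 0.00672. It was also called higher there with no filter on low counts and with all 6 libraries in 1 fit, at 0.86 and 0.83.

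Bak1, the second pore-forming effector, stood at 54.1 and 32.4 CPM in the control group, 77.6 and 54.2 CPM in the dexamethasone group, and 125 and 126 CPM in the dexamethasone + EPC-EVs group. The vesicle libraries lay above all others. Its log2 fold change was 0.88 ± 0.18 (SE) compared with the dexamethasone group, with an edgeR adjusted p of 0.00248, and 0.24 with an edgeR adjusted p of 0.307 without the trend. Against control it was 1.49 ± 0.26 (SE), with an edgeR adjusted p of 0.00347, and 0.42 with an edgeR adjusted p of 0.138 without the trend. Exons of Bak1 overlap those of Ggnbp1 on the other strand, which stood at 1.49 to 9.28 CPM over the 6 libraries. Bax shares exons with a predicted gene on the same strand. The study aligned reads with a stranded setting (RF), but the strand setting of the counting was not stated in the sources used here. Reads of overlapping genes may therefore not be separated.

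Of the BH3-only members, Bbc3 and Bad were called. Bbc3 encodes PUMA, a target of p53, and stood at 4.07 and 3.98 CPM in the control group, 3.93 and 4.56 CPM in the dexamethasone group, and 23.4 and 12.2 CPM in the dexamethasone + EPC-EVs group. These levels came from 20 to 31 counts in each library without vesicles and from 296 and 156 counts in those with them. Both vesicle libraries lay above the rest, though they differed from each other. The log2 fold change was 2.02 ± 0.42 (SE) compared with the dexamethasone group, with an edgeR adjusted p of 0.00280, and 0.65 with an edgeR adjusted p of 0.269 without the GC and length trend. The level with vesicles was 4.27 times that of the control group by the fit, with a 95% confidence interval of the log2 fold change from 0.99 to 3.21 and an edgeR adjusted p of 0.0110. That call was lost without dexamethasone + EPC-EVs replicate 1, at 1.56 with an edgeR adjusted p of 0.196, and without the trend, at 0.12 with an edgeR adjusted p of 0.880.

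Bad, a sensitizer held inactive by phosphorylation, stood at 5.86 and 4.38 CPM in the control group, 7.13 and 8.39 CPM in the dexamethasone group, and 25.9 and 23.4 CPM in the dexamethasone + EPC-EVs group. The vesicle libraries were close to each other and above all others. Its log2 fold change was 1.62 ± 0.30 (SE) compared with the dexamethasone group, with an edgeR adjusted p of 0.00131, and 0.95 with an edgeR adjusted p of 0.0326 without the GC and length trend. Against control it was 2.21 ± 0.38 (SE), with an edgeR adjusted p of 0.00299, and 1.16 with an edgeR adjusted p of 0.0434 without the trend. Gpr137, whose exons overlap those of Bad on the other strand, stood at 6.19 and 4.78 CPM in the control group, 16.6 and 8.69 CPM in the dexamethasone group, and 31.1 and 41.4 CPM in the dexamethasone + EPC-EVs group. Whether its reads add to the counts of Bad was not tested.

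Bcl2l11 and Bid were not called in any of the 3 comparisons. Bcl2l11 encodes BIM, which binds all anti-apoptotic members, and stood at 25.7 and 28.3 CPM in the control group, 35.5 and 37.2 CPM in the dexamethasone group, and 31.4 and 25.3 CPM in the dexamethasone + EPC-EVs group. Its log2 fold change was 0.42 ± 0.26 (SE) for dexamethasone compared with control and -0.41 ± 0.22 (SE) for vesicles compared with dexamethasone. Bid, which caspase 8 cleaves to link death receptors to the mitochondrion, stood at 47.4 and 28.5 CPM in the control group, 33.6 and 53.4 CPM in the dexamethasone group, and 55.8 and 71.8 CPM in the dexamethasone + EPC-EVs group. Its log2 fold change compared with the dexamethasone group was 0.51, with a 95% confidence interval from -0.01 to 1.02. Replicates of Bid differed by more than the means of the control and dexamethasone groups did. Bid was called higher at 0.88 without dexamethasone replicate 2 (edgeR adjusted p = 0.0494) and at 0.69 without dexamethasone + EPC-EVs replicate 1 (edgeR adjusted p = 0.0315). Against control, where it was 0.70 with an edgeR adjusted p of 0.0950, it was called at 1.16 without control replicate 1 (edgeR adjusted p = 0.00894). With no filter on low counts, edgeR called Bid in both comparisons, at 0.54 (adjusted p = 0.0300) and 0.75 (adjusted p = 0.0237). Exons of Bid overlap those of Bcl2l13 on the other strand.

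**Figure D2:**
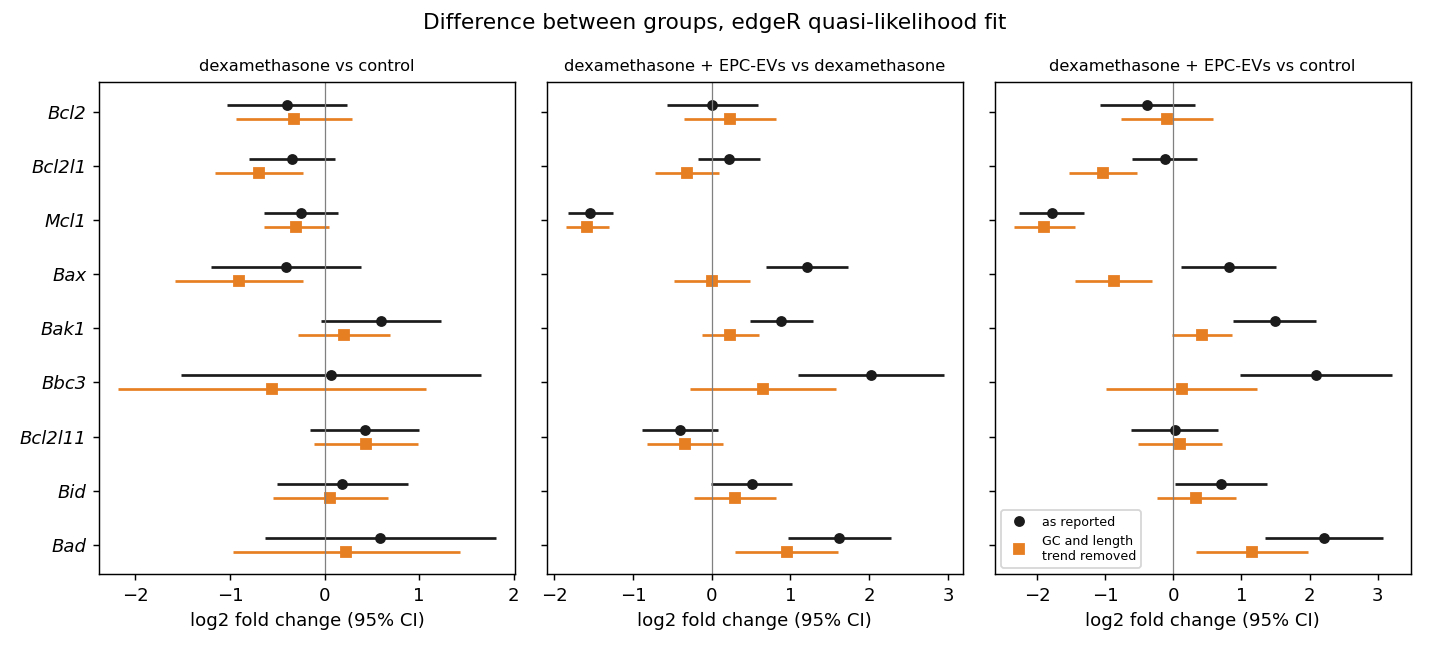
Log2 fold change with 95% confidence interval of 9 BCL2 family genes in 3 comparisons by edgeR, as reported (circles) and with the trend on GC content and length removed (squares). Mcl1 keeps its place at -1.54 and -1.58 compared with the dexamethasone group, while Bax moves from 1.21 to 0.00.

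Per length, Mcl1 was the most abundant member in the libraries without vesicles. Its deposited FPKM was 115 and 154 in the control group, 113 and 126 in the dexamethasone group, and 40.6 and 39.0 in the dexamethasone + EPC-EVs group, where Bak1 at 51.0 and 50.7 FPKM stood above it. Mcl1 made up 58.3% and 72.7% of the summed FPKM of the 9 members in the control group, 57.8% and 62.2% in the dexamethasone group, and 22.6% and 22.7% in the dexamethasone + EPC-EVs group. Bcl2 was among the lowest members at 2.04 to 3.55 FPKM over the 6 libraries, a range that overlapped that of Bcl2l11 at 3.04 to 4.79 FPKM. Bbc3 lay below Bcl2 in each library without vesicles, at 1.83 to 2.22 FPKM. Bad lay below it in the control group, at 2.93 and 2.13 FPKM.

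Mcl1 made up 85.6% and 89.3% of the anti-apoptotic FPKM in the control group and 88.5% in each library given dexamethasone alone. Where vesicles were added, it made up 71.0% and 68.8%. Summed anti-apoptotic FPKM was 134.4 and 172.1 in the control group, 127.5 and 142.4 with dexamethasone alone, and 57.2 and 56.67 with vesicles. Summed effector FPKM was 41.36 and 24.25, 47.42 and 33.29, and 79.52 and 75.69 in the same order. Ratios of these sums therefore carry changes in both, and the ratio of Bax to Bcl2 holds no Mcl1. The ratio of summed anti-apoptotic to summed effector FPKM was 3.25 and 7.10 in the control group, 2.69 and 4.28 in the dexamethasone group, and 0.719 and 0.749 in the dexamethasone + EPC-EVs group. The ratio of summed BH3-only to summed anti-apoptotic FPKM was 0.160 and 0.0884 in the control group, 0.158 and 0.189 in the dexamethasone group, and 0.748 and 0.696 in the dexamethasone + EPC-EVs group. Both ratios set the vesicle libraries apart from the others, while control and dexamethasone libraries overlapped. The ratio of Bax to Bcl2 was 5.31 and 3.84 in the control group, 5.19 and 4.03 in the dexamethasone group, and 9.56 and 12.3 in the dexamethasone + EPC-EVs group. The ratio of Bcl2l11 to Mcl1 was 0.0279 and 0.0224 in the control group, 0.0409 and 0.0380 in the dexamethasone group, and 0.0946 and 0.0780 in the dexamethasone + EPC-EVs group. These ratios are descriptions with no test and carry the GC content of each gene, since FPKM corrects for length alone.

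**Figure D3:**
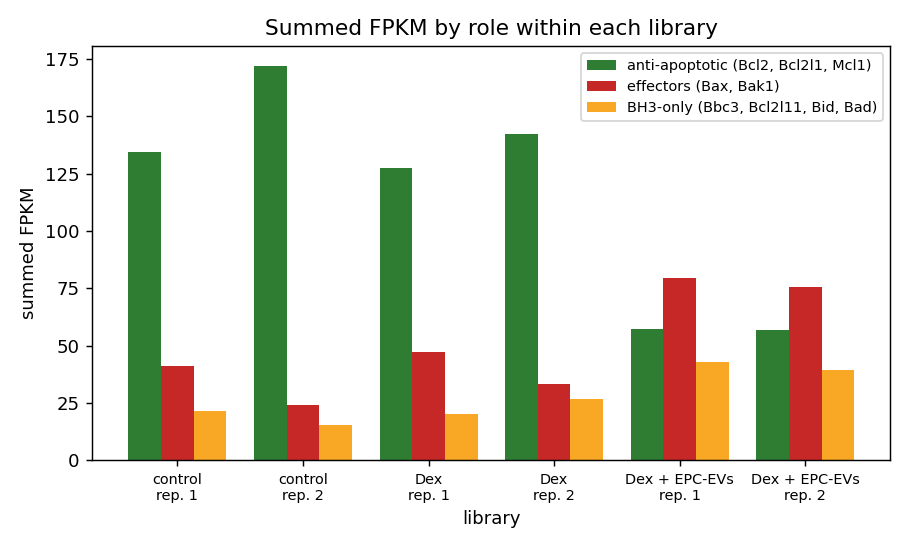
Summed FPKM (linear axis from 0) of the anti-apoptotic, effector and BH3-only members in each of 6 libraries. Effectors exceed anti-apoptotic members in the dexamethasone + EPC-EVs libraries, with ratios of anti-apoptotic to effector FPKM of 0.719 and 0.749, and lie below them in the others.

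The transcript table, which covers chromosome 1, listed 51 transcripts under Bcl2. Of these, 2 were annotated and 49 were assembled from the reads, 47 of them with a single exon, and 46 of these lay within the gene between its annotated exons. Of the assembled transcripts, 27 were listed at 0 in at least 1 library. The annotated full-length transcript ENSMUST00000112751.1 spans chr1:106538178-106714274 on GRCm38. Its FPKM was 0 and 2.34 in the control group, 2.23 and 2.01 in the dexamethasone group, and 2.96 and 1.56 in the dexamethasone + EPC-EVs group. In control replicate 1, an assembled transcript of 2 exons that shares the boundary at 106538178 was listed at 2.97 FPKM instead. By limma on log2(FPKM + 1), 5 of 9149 transcripts (0.0547%) were called for dexamethasone compared with control, 1 of 9311 (0.0107%) for dexamethasone + EPC-EVs compared with dexamethasone and 5 of 9278 (0.0539%) for dexamethasone + EPC-EVs compared with control. None of them belonged to Bcl2, which says little where so few transcripts of any gene were called. Of the 50, 49 and 50 transcripts of Bcl2 tested in the 3 comparisons, 0 had a limma adjusted p under 0.05. An unadjusted limma p under 0.05 was found for 1, 2 and 0 of them, beside 360, 1401 and 1381 of all transcripts. The single-exon transcript outside the gene, at chr1:106536993-106537243, was the 1 in the first comparison and 1 of the 2 in the second.

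Of 12 further family genes, 8 were in the table and 5 were tested, and 4 were called higher with vesicles in each comparison by edgeR, where 20.9% and 19.1% of all genes were. Their median log2 fold change was 0.70 compared with the dexamethasone group and 1.54 compared with the control group, beside 0.01 and 0.02 over all genes tested. Compared with the dexamethasone group, Bok, a BAX-like effector, was 2.27 higher on the log2 scale, Bmf, a BH3-only gene, 1.07, Bcl2l2, an anti-apoptotic gene, 0.70, and Bcl2l13 0.62. Against control these values were 3.92 for Bok, 1.82 for Bmf, 1.54 for Bcl2l2 and 0.86 for Bcl2l13. Bok is imprecise in both comparisons, with 27 and 3 counts after dexamethasone alone and 8 and 0 counts in control: with 1 library left out it ran from 1.43 to 4.57 compared with dexamethasone, where its call was lost without dexamethasone replicate 2, without dexamethasone + EPC-EVs replicate 1 and in the fit on all 6 libraries. Against control Bok ran from 3.04 to 9.80, Bmf from 1.42 to 2.48 and Bcl2l2 from 1.09 to 2.31 with 1 library left out. Without the GC and length trend, the calls of Bok and Bcl2l2 were lost in both comparisons and that of Bmf compared with dexamethasone. The call of Bcl2l2 compared with dexamethasone lay at the threshold and was also lost under each other scaling, by DESeq2, by limma, in the fit on all 6 libraries and without any of 3 of the 4 libraries, with values from 0.38 to 0.99 when 1 library was left out.

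Downstream of the pore, the genes of released mitochondrial proteins gave 2 higher and 1 lower of 5 tested compared with the dexamethasone group, where 20.9% and 18.9% of all genes were. Htra2, a protease that relieves inhibition of caspases, rose from 14.3 and 12.1 CPM to 56.7 and 56.4 CPM. Endog, a mitochondrial nuclease, had 0 counts in both dexamethasone libraries and a mean of 2.68 CPM with vesicles, which is at least 6.10-fold higher against a floor of 3 counts per library. Cycs, which encodes cytochrome c, fell from 107 to 69.2 CPM, a call lost without the trend. The list had a median log2 fold change of 0.63. Against control the median was 0.72, and 1 of 5 was higher, where 19.1% of genes were: Htra2 at a log2 fold change of 3.14. This call rests on a control group whose replicate 2 had 3 counts: the value was 6.53 without control replicate 1 and 2.28 without control replicate 2, and DESeq2 did not call it. Of the 3 outer membrane channels, edgeR called 0 in either comparison, where 39.8% and 36.4% of all genes were called. Of these channels, 0 had an unadjusted p under 0.05 and 0 were called by DESeq2 or limma, and their medians were -0.05 and 0.16. The most abundant, Vdac1, had a mean of 166 CPM in both the dexamethasone and the dexamethasone + EPC-EVs group and a log2 fold change of 0.20 compared with control.

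Among 7 genes of the apoptosome and caspases, 1 was higher and 2 were lower compared with the dexamethasone group. Of all genes, 20.9% were higher and 18.9% lower, and the list had a median log2 fold change of -0.34. Casp9, the initiator caspase of this route, was higher by 0.95 on the log2 scale, while Casp6 fell by 0.98 and Apaf1, the scaffold, fell by 0.48. The calls of Casp9 and Apaf1 were lost without the trend, by DESeq2, by limma and in the fit on all 6 libraries, and DESeq2 and limma each called 0 genes of this list higher and 1 lower there. Against control, Casp9 was higher at 2.46, and Casp6 at -1.11 and Casp8 at -0.92 were lower, where 19.1% and 17.2% of genes were. The call of Casp8 was lost without the trend, and the list median was -0.42. Of 6 inhibitor of apoptosis genes, Birc6 was called, at 0.62 compared with the dexamethasone group, where 39.8% of all genes were called. The list median was -0.14. Against control, where edgeR called 36.4% of all genes, it called 0 of the 6, with 2 at an unadjusted p under 0.05. DESeq2 called 1 of them and limma 0. Birc6 was at 0.46 there, with an edgeR adjusted p of 0.0579, and the list median was -0.18.

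In the death receptor list, 1 gene was higher and 3 were lower of 8 tested compared with the dexamethasone group. Over all genes, 20.9% were higher and 18.9% lower, and the list had a median log2 fold change of -0.38. Fas, a death receptor upstream of BID cleavage, fell from a mean of 60.4 to 11.5 CPM, a log2 fold change of -2.44. Ripk1 and Tnfrsf10b were lower at -0.69 and -0.46, and Tradd, an adaptor, was higher at 1.27. The calls of Tradd and Ripk1 were lost without the trend. Against control, 2 were higher (Tradd at 2.47, Tnfrsf1a at 0.85) and 2 lower (Fas at -2.57, Ripk1 at -0.80), with a median of -0.36. Of all genes, 19.1% were higher and 17.2% lower there. Tradd had 8 and 16 counts in the control libraries and ran from 1.99 to 3.25 with 1 library left out. Without the trend the calls of Tradd and Ripk1 were lost there too, and the sign of Tnfrsf1a changed.

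Of 6 tested transcription factors known to induce BH3-only genes, 1 was higher and 3 were lower in each comparison. Over all genes, 20.9% were higher and 18.9% lower compared with dexamethasone, and 19.1% and 17.2% compared with control. Atf4, a factor of the integrated stress response, rose from a mean of 52.5 to 225 CPM compared with the dexamethasone group. Ddit3 fell from 78.3 to 40.6 CPM, Foxo1 from 60.1 to 32.6 CPM and Trp63 from 66.5 to 25.6 CPM, the last call being lost without the trend. The medians were -0.56 compared with the dexamethasone group and -0.71 compared with the control group. Against control, the log2 fold changes were 2.00 for Atf4, -2.08 for Trp63, -1.64 for Foxo1 and -1.32 for Ddit3. Trp63 differed between the vesicle libraries, at 38.6 and 12.6 CPM. With 1 library left out it ran from -2.44 to -0.81 compared with dexamethasone and from -3.10 to -1.48 compared with control, and its call was lost without either dexamethasone library, without either control library and, compared with dexamethasone, by DESeq2.

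Of 3 genes that set MCL1 protein turnover, Usp9x, a deubiquitinase that stabilizes MCL1, was called lower in both comparisons, at -0.73 and -1.16, and in neither once the GC and length trend was removed. Over all genes, 18.9% and 17.2% were called lower, and the medians of this list were -0.10 and -0.23. Of 9 genes that phosphorylate or hold BAD, 3 were higher and 2 lower in each comparison, with medians of 0.27 and 0.78. Over all genes, 20.9% were higher and 18.9% lower compared with dexamethasone, and 19.1% and 17.2% compared with control. Compared with the dexamethasone group, Pim3 was higher at 1.20 and Akt1 at 1.18, both calls being lost without the trend, while Ywhae was lower at -0.99. Against control, Akt1 was higher at 1.92, Pim3 was higher with means of 24.7 and 11.9 CPM, and Ywhae was lower at -1.25. Without the trend the call of Akt1 was lost there and the sign of Pim3 changed, and the call of Pim3 was also lost by DESeq2 and under the replicate block.

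The glucocorticoid receptor gene Nr3c1 and targets of the receptor were not called in the dexamethasone group. By edgeR, 0 of the 6 tested genes of this list were called for dexamethasone compared with control. Of these, 2 had an unadjusted edgeR p under 0.05 and were lower, Nr3c1 at -0.40 and Dusp1 at -0.44. Limma called 0, DESeq2 called 0 among the 4 to which it gave an adjusted p, and the median log2 fold change was -0.17. With vesicles, 4 of 6 were higher compared with the dexamethasone group, where 20.9% of all genes were: Tsc22d3 at 2.40, Dusp1 at 2.21, Sgk1 at 0.75 and Fkbp5 at 0.73, with a median of 0.74. Against control, where 19.1% of all genes were higher, 3 were higher, Tsc22d3 at 2.31, Dusp1 at 1.77 and Fkbp5 at 1.01. Nr3c1, the receptor gene, was lower at -0.62, where 17.2% of all genes were lower, and the list median was 0.76. The calls of Fkbp5 were lost without the trend, and the sign of Nr3c1 changed. The call of Nr3c1 was also lost with no scaling beyond the library total, under the replicate block and by limma. Tsc22d3 stood at 94.3 and 217 CPM in the vesicle libraries, ran from 1.70 to 2.89 compared with dexamethasone and from 1.61 to 2.81 compared with control with 1 library left out, and was not called compared with control without control replicate 2.

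For dexamethasone compared with control, 0 genes of each of the other lists were called by edgeR, 0 by limma, and 0 to 2 genes of a list had an unadjusted p under 0.05. DESeq2 called 0 too, but gave an adjusted p to 0 of the leukocyte markers and to 1 or 2 genes in several other lists, so its count says little there. The list medians lay between -0.28 for MCL1 turnover and 0.49 for the further family genes. With vesicles, single libraries moved the calls of list genes: of 34 chosen by the naming rule and called compared with dexamethasone, 24 were still called without dexamethasone replicate 1. Calls lost without dexamethasone replicate 1 were those of Bcl2l2, Cycs, Apaf1, Tradd, Ripk1, Tnfrsf10b, Trp63, Pim3, Sgk1 and Cd34. Without dexamethasone replicate 2, 22 were still called, and those lost were Bok, Bmf, Bcl2l2, Bcl2l13, Casp6, Casp9, Apaf1, Tnfrsf10b, Trp63, Sgk1, Fkbp5 and Cd34. Without dexamethasone + EPC-EVs replicate 1, 29 were still called, and those lost were Bok, Casp9, Apaf1, Tradd and Fkbp5. Without dexamethasone + EPC-EVs replicate 2, 29 were still called, and those lost were Bmf, Bcl2l2, Casp6, Tradd and Tnfrsf10b. Of 32 such genes called compared with control, 27 were still called without control replicate 1. Calls lost without control replicate 1 were those of Casp8, Ripk1, Trp63, Cd34 and Csf1r. Without control replicate 2, 28 were still called, and those lost were Trp63, Tsc22d3, Nr3c1 and Csf1r. Without dexamethasone + EPC-EVs replicate 1, 24 were still called, and those lost were Bcl2l13, Casp6, Casp8, Ripk1, Pim3, Fkbp5, Nr3c1 and Cd34. Without dexamethasone + EPC-EVs replicate 2, 21 were still called, and those lost were Bcl2l2, Bcl2l13, Casp6, Casp8, Ripk1, Pim3, Fkbp5, Nr3c1, Cd34, Csf1r and Cd14. Apart from the GC and length trend, and with all libraries kept, calls compared with dexamethasone were lost for Bcl2l2 with no scaling beyond the library total, for Apaf1 and Tnfrsf10b with no filter on low counts, for Bcl2l2, Casp9, Apaf1, Tnfrsf10b and Trp63 by DESeq2, for Bok, Bmf, Bcl2l2, Casp9, Apaf1, Tradd, Tnfrsf10b and Fkbp5 in the fit on all 6 libraries and for Bcl2l2, Bcl2l13, Casp9, Apaf1 and Fkbp5 by limma. Apart from the GC and length trend, and with all libraries kept, calls compared with control were lost for Casp8 and Nr3c1 with no scaling beyond the library total, for Htra2, Pim3 and Csf1r by DESeq2, for Pim3, Nr3c1 and Csf1r under the replicate block and for Casp6, Casp8, Ripk1, Nr3c1, Spp1 and Csf1r by limma.

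Markers placed the cells only in part. The 9 osteoblast markers were all in the table, with summed levels of 15820 and 17380 CPM in the control group, 17000 and 17450 CPM in the dexamethasone group, and 29230 and 23390 CPM in the dexamethasone + EPC-EVs group. Spp1 was the most abundant without vesicles and Col1a2 with them, and Alpl and Bglap had 0 counts in dexamethasone replicate 2. Group means of Alpl, Bglap and Ibsp lay between 0.36 and 3.60 CPM. Sp7 stood at 20.6 and 3.61 CPM in the vesicle libraries. Compared with the dexamethasone group, Col1a2 was higher at 1.89, Col1a1 at 1.51 and Sparc at 1.25, Spp1 was lower at -1.06, and the median of 7 tested was 1.25. Against control, the same values were 2.05, 1.68, 1.59 and -1.09, with a median of 0.72 over 9 tested. The calls of Col1a1 and Spp1 against the control group were lost without the trend.

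Of 9 endothelial markers, 7 were in the table, and Cd34 held 239 to 411 of their 243 to 416 summed CPM in each library. Without Cd34 the sum was 1.58 to 5.38 CPM, and Tek was at 0 in all libraries but control replicate 2. Cd34 was lower with vesicles, at -0.51 and -0.62, the calls being lost without the trend, and list medians were -0.51 over 3 tested and -0.87 over 2 tested. Of 7 leukocyte markers, 4 were in the table, with summed levels of 12.2 and 7.37 CPM in the control group, 6.11 and 8.98 CPM in the dexamethasone group, and 28.7 and 70.3 CPM in the dexamethasone + EPC-EVs group. Cd14 was the most abundant except in dexamethasone + EPC-EVs replicate 2, where Csf1r stood at 37.0 CPM. Cd14 was higher at 2.44 and 1.65, and Csf1r at 4.25 compared with the control group, with medians of 2.86 and 2.95 over 2 tested. Cd14 ran from 1.97 to 3.19 compared with dexamethasone with 1 library left out, and its call against control was lost without dexamethasone + EPC-EVs replicate 2. Csf1r rested on single libraries, with 0 counts in control replicate 2 and 4.43 CPM in dexamethasone + EPC-EVs replicate 1. Its call was lost by DESeq2, limma and the replicate block, and without control replicate 1 (at 10.7), control replicate 2 or dexamethasone + EPC-EVs replicate 2. Adgre1 and Cd3e were at 0 in both vesicle libraries. The part of such cells in the results above was not tested.

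The gene most like each member over the 6 libraries, among 9223 genes whose mean CPM reached 10, was Canx for Mcl1 (Pearson r = 0.999), Akr1a1 for Bad (r = 0.9998), Atp6v0a2 for Bak1 (r = 0.998), Elf1 for Bcl2l1 (r = 0.997), Fzd5 for Bax (r = 0.996), Polr2l for Bid (r = 0.992), Gclm for Bcl2l11 (r = 0.986) and Gm19299 for Bcl2 (r = 0.969). These are descriptions over 6 libraries that fall into 3 groups, and no chance level was computed for the best of so many genes. Bbc3, with a mean of 8.71 CPM, fell below the limit.

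Promoters are shown for Mcl1, called lower with vesicles in both comparisons, for Bad, called higher in both, and for Bax, whose direction depended on the GC and length trend. RefSeq windows of 300 bases on GRCm38.p6 matched all 9 members, with 15 windows in all. Both strands were searched for the GC box GGGCGG, the E-box CACGTG, the forkhead motif TGTTTAC and the palindromic glucocorticoid response element. The GC box was in 10 of the 15 windows and in 35.7% of 32851 promoters of the same length. The E-box was in 2 of 15 and 7.15%, the forkhead motif in 2 of 15 and 3.65%, and the glucocorticoid response element in 0 of 15 and 0.00913%. Some members have more than 1 window, and those of Bbc3 at chr7:16310011-16310310 and chr7:16310181-16310480 overlap, so the 15 windows are not independent. Their GC content ran from 49.3% to 78.0%, beside a median of 52.7% over all promoters. In the windows shown it was 65.7% for both Mcl1 and Bad (first start) and 57.3% for Bax. Whether the share with a GC box goes beyond the GC content of the windows was not tested. The windows lie at chr3:95658471-95658770 on the plus strand for Mcl1, chr7:45466849-45467148 on the minus strand for Bax and chr19:6941611-6941910 on the plus strand for Bad. No motif overlapped another in these windows. The other window of Bad, at chr19:6942312-6942611, held 0 of the motifs searched for. Capitals mark the motifs found in the windows shown, which are 1 GC box in Mcl1, 3 GC boxes and 2 E-boxes in Bax, and 4 GC boxes in Bad.
Mcl1: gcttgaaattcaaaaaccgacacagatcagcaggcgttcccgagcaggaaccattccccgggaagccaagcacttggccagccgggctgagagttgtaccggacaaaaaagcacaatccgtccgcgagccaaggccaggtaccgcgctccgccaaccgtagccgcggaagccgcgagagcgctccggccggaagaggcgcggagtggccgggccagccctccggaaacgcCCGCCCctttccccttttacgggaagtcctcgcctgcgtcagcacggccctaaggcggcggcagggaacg
Bax: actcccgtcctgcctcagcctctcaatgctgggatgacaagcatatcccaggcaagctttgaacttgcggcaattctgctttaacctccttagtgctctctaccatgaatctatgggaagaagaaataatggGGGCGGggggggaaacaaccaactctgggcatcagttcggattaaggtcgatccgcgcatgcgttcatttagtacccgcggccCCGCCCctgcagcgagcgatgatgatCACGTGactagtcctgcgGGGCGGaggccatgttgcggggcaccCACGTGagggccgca
Bad: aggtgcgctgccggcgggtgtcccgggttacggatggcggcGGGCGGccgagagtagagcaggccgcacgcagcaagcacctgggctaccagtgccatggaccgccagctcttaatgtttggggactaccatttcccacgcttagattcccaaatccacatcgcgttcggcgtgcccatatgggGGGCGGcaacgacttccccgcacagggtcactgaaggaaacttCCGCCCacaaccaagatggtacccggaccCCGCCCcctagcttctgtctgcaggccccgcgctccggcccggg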

How the data were processed

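RNA-seq of 6 libraries was analysed from 2 tables. For the counts, the authors removed adapter, poly-N and low-quality reads, aligned the rest to GRCm38 with HISAT2 and counted reads per gene with HTSeq 0.6.1. The deposited gene FPKM equal the count per gene length and library total, and transcript FPKM were estimated by the authors using StringTie. Groups follow the sample labels, which state 72 hours and osteoblasts where the series description differs. Each pair of groups was fitted on its 4 libraries with edgeR 4.0.16 (TMM, filterByExpr, robust quasi-likelihood, Benjamini-Hochberg over all genes tested), called at an adjusted p of 0.05, and all 9 measured members passed the filter. Transcripts with a mean FPKM of at least 0.1 were tested with limma 3.58.1 on log2(FPKM + 1). CPM were scaled by TMM over the 6 libraries. The fits were tested on simulated data. Named genes of each list were up to 4 called with the largest change, or the most abundant where none was called, and 1 gene is not reported here. The members and lists were chosen with earlier results of these data known. Alternatives were other scalings, filters, DESeq2 1.42.0, limma on FPKM, a fit on all libraries, a replicate block, mitochondrially encoded genes left out, a loess trend on GC content and length (span 0.4, GENCODE vM21) removed, the threshold of the study's methods, and each library left out. A floor of 3 counts covers counting error only.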

Additional observations from a re-analysis of the deposited data

How the results depend on the processing

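Mcl1 kept its direction and its call in both comparisons with vesicles under every alternative tried, and Bad did so too. Removing the trend on GC content and length lowered the members called to 2 compared with the dexamethasone group. It lowered the genes called there from 5397 of 13556 to 4231 of 13544, and turned Bax to -0.874 compared with control. In the same fit Bcl2l1 was -0.312 and Usp9x 0.039 compared with dexamethasone, Bbc3 was -0.556 for dexamethasone compared with control, and Vdac1 was -0.168, Tnfrsf1a -0.071, Pim3 -0.65 and Nr3c1 0.073 compared with control. It left 20 of 34 called list genes called in the same direction compared with dexamethasone and 18 of 32 compared with control. Bcl2 compared with dexamethasone lay near 0 and was -0.002 with RLE, -0.032 with upper quartile scaling, -0.035 with no scaling and -0.037 by limma on FPKM. Bcl2l11 compared with control was -0.035 with upper quartile scaling. The causes were not tested.

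For dexamethasone compared with control, the 7 genes called became 248 with no filter, 129 by DESeq2, 17 without the GC and length trend, 1 without mitochondrially encoded genes and 0 by limma on FPKM. The threshold of the study's methods (p of 0.05 before adjustment, log2 fold change of 1.5) gave 182 genes there, 1922 genes and 3 members compared with dexamethasone, and 2793 genes for vesicles compared with control. Same-numbered libraries did not deviate together (correlations of 0.060, 0.004 and 0.032), so the numbers were not taken as pairs. The replicate block gave 43, 5366 and 4679 genes and 0, 6 and 4 members in the 3 comparisons, with Bid added at 0.53 compared with dexamethasone, and put Bcl2 at -0.011 compared with dexamethasone.

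Leaving out each library assumes that a lone library varies like the others. For dexamethasone compared with control it gave 9 to 2200 genes and 0 to 2 members, with log2 fold changes of -0.45 to 0.011 for Mcl1, -0.707 to 0.014 for Bax, -0.035 to 0.173 for Bbc3 and -0.176 to 0.615 for Bid. For vesicles compared with dexamethasone it gave 3250 genes (without dexamethasone replicate 2) to 4813, -0.267 to 0.272 for Bcl2 and -0.209 to 0.13 for Vdac1. Compared with control, Bcl2l11 ranged from -0.131 to 0.187. Replicates differed by more than sampling noise in all 3 groups, where chi-square divided by its degrees of freedom was 17.8, 7.36 and 21.7.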
